A study of Mus musculus with 5 samples.

Results

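This account follows 10 genes of pericellular proteolysis in mouse airway epithelium: the membrane serine proteases and close relatives Prss8, St14, Tmprss2, Tmprss4, Tmprss11a, Tmprss11d and Prss22, the protease inhibitors Spint1 and Spint2, and the aspartic protease Asprv1. The members were all probe sets of the deposited intensity table that the array annotation assigned to 1 of these genes and to no other gene. That gave 14 of 45037 non-control probe sets and 10 of 18193 genes. Tmprss2 had 4 probe sets, Spint2 had 2 and each of the other genes had 1.

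RNA from sorted tracheal cells of C57BL/6 mice aged 8 to 12 weeks, of both sexes, was hybridised to an Affymetrix mouse genome array. The duct group held 3 arrays of TROP-2+ cells from the upper part of the trachea, sorted from the tissue left after pronase had removed the surface epithelium. The basal group held 2 arrays of TROP-2+ITGA6+ cells from the lower part of the trachea, sorted from surface epithelium freed with dispase. Each array was a different pool of 10 to 15 mice, so a value is an average over animals and over the cells of a gate. The enzyme, the section of trachea and the gate changed together with the cell type, and these cannot be told apart. The labels name no transgene or agent for either group.

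Membrane serine proteases cut proteins at or near the epithelial surface. Matriptase, the product of St14, and prostasin, the product of Prss8, activate each other's zymogens in many epithelia, and prostasin and several TMPRSS proteases can activate the epithelial sodium channel. The Kunitz-type inhibitors HAI-1 and HAI-2, encoded by Spint1 and Spint2, hold these proteases in check. Asprv1 encodes a retroviral-like aspartic protease of stratified epidermis that processes profilaggrin, so it belongs to a different catalytic class.

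The arrays were scaled by the authors to a common trimmed mean, and 62.5% to 74.6% of probe sets lay above the brightest Bacillus control probe set of their array, which is used here as a measure of background and ran from 39.5 to 86.5. Duct replicate 1 stood apart, its median intensity being 92.3 where those of the other 4 arrays ran from 146.5 to 152.8, and the result of a member gene is given without it where its call changed or its value moved by over 1.5 times. Basal replicate 2 had the brightest control, 86.5, and the lowest share of probe sets above it, 62.5%. Basal replicates 1 and 2 differed in some secretory genes, with Scgb1a1 at 9934 and 32690 and Bpifb1 at 845.2 and 9579. Scgb3a2, at 32282 and 32688, was alike on both. Of 7 tested basal cell markers, 1 was called higher and 0 lower, against 0.838% and 0.136% of all tested genes. Krt5 was at 16830 to 19821 in duct and 11617 to 12334 in basal cells, and Trp63 at 6944 to 7243 in duct and 8038 to 9890 in basal cells. Krt14, on a probe set that may cross-hybridise, rose to 18421 to 22413 in duct cells, against 1327 to 1533 in basal cells (log2 fold change 3.78, limma adjusted p = 0.00595). Ngfr, the gene of a neurotrophin receptor, was at 405.8 to 754.3 in duct and 1791 to 1820 in basal cells (-1.76, adjusted p = 0.0786). With 3 duct and 2 basal arrays, precision is limited throughout.

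Asprv1 and Tmprss11a were called higher in duct cells and no member was called lower. On the most intense probe set of each gene, 2 of the 10 members were called higher and 0 lower by limma at an adjusted p under 0.05, against 0.838% of all 12536 tested genes called higher and 0.136% called lower. Before adjustment 3 members were higher and 0 lower at p under 0.05; over all genes these shares were 7.91% and 10.6%. The duct arrays lay wholly above the basal arrays in 5 members and wholly below them in 1, against 16.5% and 22.6% of all tested genes. The median log2 fold change, duct minus basal, was 0.50 over the members and -0.12 over all tested genes. All fold changes are of log2(intensity + 16), which understates the change of dim genes. Intensities are in arbitrary units. Those of different probe sets are compared only to choose probe sets and named genes and in the marker sums given below.

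**Figure D1:**
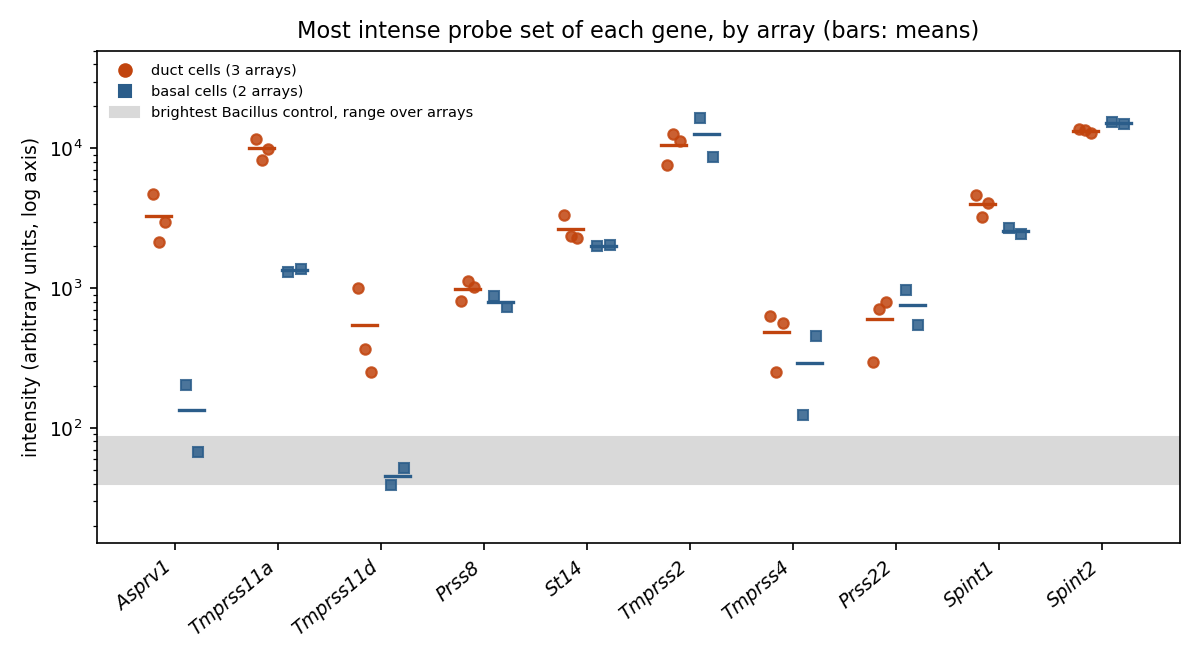
Intensity of the most intense probe set of each of the 10 genes on each array, in arbitrary units on a log axis. Circles are the 3 duct arrays, squares the 2 basal arrays, short bars the group means, and the grey band the range over arrays of the brightest Bacillus control, 39.5 to 86.5. Asprv1, Tmprss11a and Tmprss11d show duct arrays far above basal arrays, while the points of Prss8, Tmprss2, Tmprss4 and Prss22 overlap.

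Tmprss11a encodes a type II transmembrane serine protease of the subfamily that also holds the airway trypsin-like protease. It measured 11751, 8315 and 9935 on the duct arrays, against 1314 and 1382 on the basal arrays. The lowest duct array was 6.02 times the highest basal array, and the arrays of each group lay close together. The means were 10000.2 ± 1719 in duct cells (SD, n = 3) and 1348 ± 48.4 in basal cells (SD, n = 2). The log2 fold change was 2.86 (SE 0.26, limma adjusted p = 0.0155). Leaving out single arrays kept it between 2.74 and 2.99. The call held without duct replicate 1 (adjusted p = 0.0408) and was lost without duct replicate 2 (0.0608), duct replicate 3 (0.109), basal replicate 1 (0.154) or basal replicate 2 (0.118). In bulk samples, a larger share of cells expressing a gene and more RNA per cell cannot be told apart.

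Tmprss11d encodes the mouse counterpart of human airway trypsin-like protease. Its probe set measured 1007, 369 and 251 on the duct arrays, against 39.3 and 52.0 on the basal arrays. Every duct array was above its brightest Bacillus control and both basal arrays were below theirs, so only a bound exists for basal cells. By geometric means, the gene was at least 6.32-fold higher in duct cells. Here and below, such a bound sets the basal values at their controls and is not a minimum over arrays. Duct replicate 1 was well above the other duct arrays. The gene passed the filter for dim probe sets only through its duct arrays. The log2 fold change of 2.95 (SE 0.59) did not pass over all genes (adjusted p = 0.0874), and it was 2.39 (adjusted p = 0.0797) without duct replicate 1. It was called under 2 of 15 alternatives, median centring (adjusted p = 0.00507) and an intensity trend with a robust fit (0.0109), and over the 15 the adjusted p reached 0.347.

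Both genes lie in one run of Tmprss11 genes on chromosome 5. In the order of protein-coding genes in assembly GRCm38.p6 this run is Tmprss11c, Tmprss11d, Tmprss11a, Tmprss11g, Tmprss11f, Tmprss11b and Tmprss11e, between Gnrhr and Ythdc1; Tmprss11c and Tmprss11b were not analysed here. Tmprss11e, at the far end, was called higher in duct cells. It passed the filter for dim probe sets only through its duct arrays. It measured 744.7, 508.6 and 1106 on the duct arrays, against 18.3 and 37.5 on the basal arrays, and was at least 10.4-fold higher (log2 fold change 4.16, SE 0.41, adjusted p = 0.0202). The call was not kept when any 1 of the 5 arrays was left out, with adjusted p of 0.0526 to 0.170, with fold changes of 3.84 to 4.48. Tmprss11g, measured by a probe set marked as possibly cross-hybridising, had 385.4, 351.3 and 303.0 in duct cells and 433.5 and 236.6 in basal cells (0.10, adjusted p = 0.898). Tmprss11f was too dim to be tested, at 32.4 to 82.3 in duct and 19.4 to 25.2 in basal cells. The flanking gene Ythdc1, a reader of methylated RNA, had a log2 fold change of 0.49 (adjusted p = 0.382), and Gnrhr was too dim to be tested. Ythdc1 was at 3696 to 5327 in duct and 3062 to 3230 in basal cells, so its groups did not overlap.

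**Figure D2:**
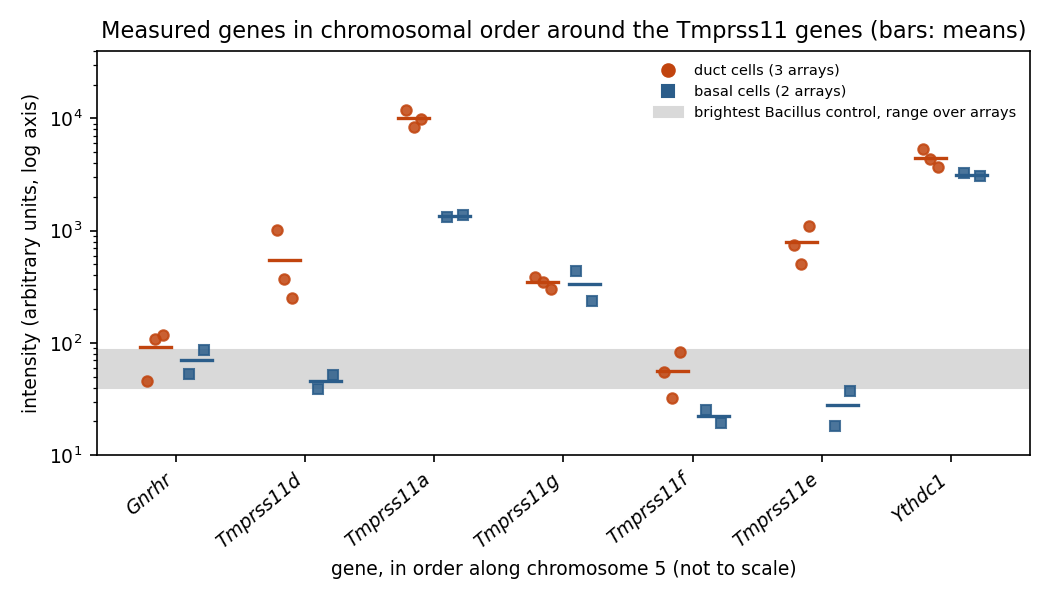
Intensities of the measured genes in their order along chromosome 5, with the Tmprss11 genes flanked by Gnrhr and Ythdc1 and positions not drawn to scale. Circles are duct arrays, squares basal arrays, short bars group means, on a log axis of arbitrary units, and the grey band is the range of the brightest Bacillus control. Tmprss11d, Tmprss11a and Tmprss11e are separated between the groups. The flanking gene Ythdc1 and the dim Tmprss11f are also separated, by smaller margins, while Tmprss11g and Gnrhr overlap.

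The matriptase and prostasin genes did not pass the test. St14 measured 3352, 2380 and 2284 on the duct arrays, against 1998 and 2021 on the basal arrays. The groups did not overlap, but the lowest duct array was only 1.13 times the highest basal array and the log2 fold change of 0.39 did not pass (SE 0.27, 95% interval -0.29 to 1.06, adjusted p = 0.499). Without duct replicate 1, the highest, it was 0.21. Prss8 measured 812.6, 1124 and 1026 on the duct arrays, against 872.8 and 731.2 on the basal arrays. Duct replicate 1 fell between the basal arrays, and the fold change was 0.29 (SE 0.26, interval -0.36 to 0.94, adjusted p = 0.603). For both genes the interval leaves out a 4-fold difference in either direction but, at its upper end, not one close to 2-fold.

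Tmprss2 encodes a transmembrane protease of airway and prostate epithelium that also cleaves respiratory virus glycoproteins. The probe sets of this gene differed in whether the groups overlapped. The most intense one, 1458347_s_at, measured 7552, 12755 and 11251 on the duct arrays, against 16491 and 8749 on the basal arrays. The groups overlapped (log2 fold change -0.23, SE 0.39, adjusted p = 0.793), and the sign turned to 0.23 without basal replicate 1. Without duct replicate 1 the value was -0.0040. Its identifier marks probes shared by several transcripts. Over the 16 alternatives the value by gene ran from -1.06 to 0.23.

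The probe set 1449369_at measured 1180, 1356 and 1061 on the duct arrays, against 2268 and 2775 on the basal arrays. All duct arrays lay below both basal arrays, with a fold change of -1.06 in the fit across 27022 probe sets (SE 0.27, interval -1.74 to -0.39, unadjusted p = 0.00864, adjusted p = 0.188). The probe set 1419154_at measured 706.2, 814.7 and 633.9 on the duct arrays, against 1043 and 1685 on the basal arrays. It had the same order of groups, at -0.88 (SE 0.32, interval -1.67 to -0.09, unadjusted p = 0.0347, adjusted p = 0.296). The fourth, 1459510_at, lay within the range of the controls on 4 of 5 arrays and was not tested. The 3 tested probe sets thus had negative fold changes in the fit of all 5 arrays, none past the test over all probe sets, and 1449369_at was called only with an intensity trend and robust fit (adjusted p = 0.0257).

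**Figure D3:**
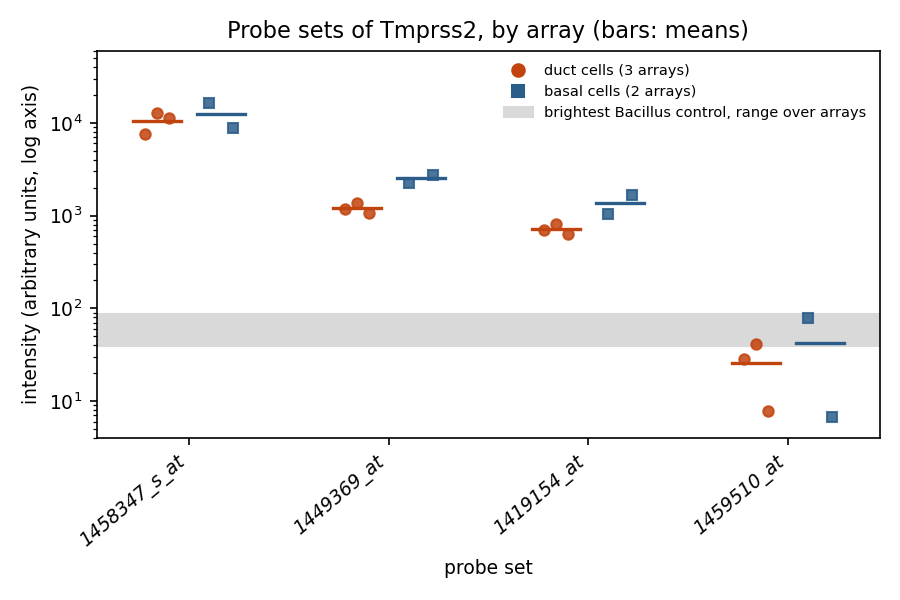
Intensities of the 4 probe sets of Tmprss2 on each array, in arbitrary units on a log axis. Circles are the 3 duct arrays, squares the 2 basal arrays, short bars the group means, and the grey band the range of the brightest Bacillus control. The duct arrays of 1449369_at, at 1061 to 1356, and of 1419154_at, at 633.9 to 814.7, lie below both basal arrays, while those of 1458347_s_at lie among them.

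The other serine proteases varied as much within groups as between them. Tmprss4, whose product can activate the epithelial sodium channel, measured 635.8, 250.3 and 564.1 on the duct arrays, against 123.9 and 458.3 on the basal arrays. The basal arrays lay 1 below and 1 within the duct range, and the fold change of 0.85 had an interval of -0.74 to 2.44 (SE 0.64, adjusted p = 0.525). It was -0.028 without basal replicate 1 and 1.73 without basal replicate 2. Prss22, the gene of a trypsin-like protease of airway epithelium, measured 294.6, 709.4 and 802.5 on the duct arrays, against 974.1 and 549.5 on the basal arrays. Its fold change was -0.39 (SE 0.51, interval -1.66 to 0.87, adjusted p = 0.722), and it was 0.042 without duct replicate 1, the lowest of the duct arrays.

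Both inhibitor genes were measured far above background on all 5 arrays, and neither passed the test. Spint1 measured 4611, 3216 and 4087 on the duct arrays, against 2676 and 2433 on the basal arrays. The groups did not overlap, and the fold change was 0.62 (SE 0.26, interval -0.03 to 1.27, unadjusted p = 0.0594, adjusted p = 0.290). Spint2 was read by 2 probe sets. On 1438968_x_at, a kind that may cross-hybridise, it measured 13692, 13493 and 12817 in duct cells and 15536 and 14867 in basal cells. The duct arrays were the lower ones by a small margin, the lowest basal array being 1.09 times the highest duct array (-0.19, SE 0.22, interval -0.74 to 0.36, adjusted p = 0.694). On 1451935_a_at it measured 4121, 3854 and 3276 in duct cells and 4076 and 4566 in basal cells, with overlap (-0.21, adjusted p = 0.750 in the fit across probe sets). With each array centred on its median the value of 1438968_x_at was 0.017, so no direction is given for Spint2. The intervals of Spint1 and Spint2 end below the lower end of that of Tmprss11a, 2.22, and of Asprv1, 3.22; the difference between these fold changes was not tested.

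Asprv1 rose in duct cells. It measured 4744, 2148 and 2980 on the duct arrays, against 203.1 and 67.5 on the basal arrays. Each duct array was at least 10.6 times the higher basal array, while basal replicate 2 lay under its brightest control, 86.5, and basal replicate 1 above its own, 59.7. The means were 3290 ± 1325 in duct cells (SD, n = 3) and 135.3 ± 95.9 in basal cells (SD, n = 2), a log2 fold change of 4.54 (SE 0.53, interval 3.22 to 5.85, adjusted p = 0.0318). The fold change was 4.23 without duct replicate 1 (adjusted p = 0.0723), 4.80 without duct replicate 2 (0.0802) and 4.57 without duct replicate 3 (0.152). It was 5.23 without basal replicate 1 (0.0963) and 3.84 without basal replicate 2 (0.139), so the call was lost without any 1 array. Over all probe sets rather than genes its adjusted p was 0.0618.

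By probe set, 1 of the 13 tested members was called higher, that of Tmprss11a (adjusted p = 0.0342), and 0 lower, against 0.215% and 0.0185% of the 27022 probe sets. Before adjustment 3 were higher and 2 lower at p under 0.05, and of all probe sets 6.21% were higher and 8.68% lower on that measure. The groups did not overlap in 5 that were higher in duct cells and 3 that were lower, against 14.9% and 20.7% of all probe sets. The median was 0.29 over the members and -0.13 over all probe sets.

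**Figure D4:**
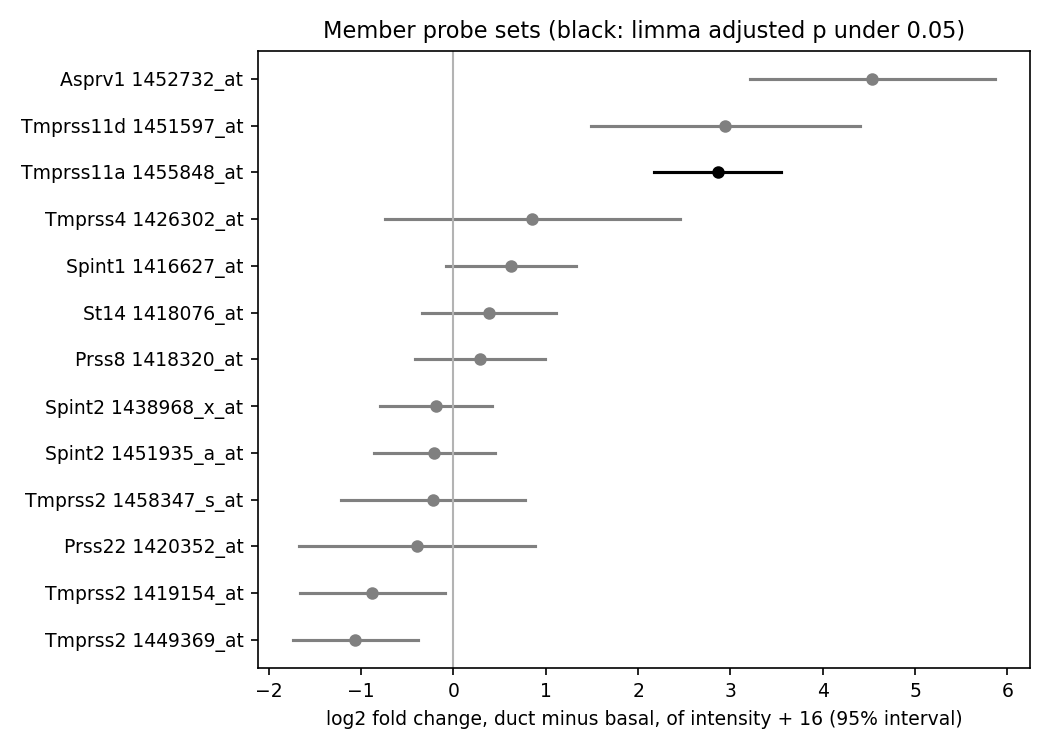
Log2 fold changes of intensity + 16, duct minus basal, for the 13 tested probe sets of the 10 genes, with 95% intervals from the fit across all probe sets. Black marks an adjusted p under 0.05 and grey the rest. Asprv1, Tmprss11d and Tmprss11a have intervals wholly above 0, the value of Tmprss11d resting on basal arrays below the Bacillus control, and 1449369_at and 1419154_at of Tmprss2 are the lowest.

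The promoters of Asprv1, Tmprss11a and Tmprss11d are set beside those of the 2 inhibitors to show how the sequence before their starts differs. RefSeq promoters (GRCm38.p6) were matched for 6 of the 10 genes, and that of Tmprss2 is not printed. The 250 bases before the gene's start are printed 5′ to 3′ on the gene's strand, with capitals for every match on either strand. The AP-1 motif was searched as TGANTCA and the GC box as GGGCGG. The TATA box was searched as TATAAA, the E-box as CACGTG, and the CCAAT box by the letters of its name. No matches overlapped.
Asprv1, chr6:86627924-86628173, plus strand: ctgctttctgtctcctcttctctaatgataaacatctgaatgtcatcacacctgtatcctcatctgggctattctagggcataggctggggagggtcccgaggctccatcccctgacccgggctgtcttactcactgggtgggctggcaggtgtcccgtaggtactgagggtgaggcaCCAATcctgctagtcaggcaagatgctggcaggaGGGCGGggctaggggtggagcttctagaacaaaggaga
Tmprss11a, chr5:86468991-86469240, minus strand: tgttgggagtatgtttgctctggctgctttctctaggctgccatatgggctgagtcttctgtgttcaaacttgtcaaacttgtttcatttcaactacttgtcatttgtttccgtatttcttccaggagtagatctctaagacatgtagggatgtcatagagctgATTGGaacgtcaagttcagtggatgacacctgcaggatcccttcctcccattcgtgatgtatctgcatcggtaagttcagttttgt
Tmprss11d, chr5:86373388-86373637, minus strand: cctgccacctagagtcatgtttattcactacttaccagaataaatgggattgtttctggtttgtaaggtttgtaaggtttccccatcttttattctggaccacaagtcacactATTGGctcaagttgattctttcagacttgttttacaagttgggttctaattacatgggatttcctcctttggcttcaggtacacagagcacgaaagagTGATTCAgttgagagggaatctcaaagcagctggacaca
Spint1, chr2:119237110-119237359, plus strand: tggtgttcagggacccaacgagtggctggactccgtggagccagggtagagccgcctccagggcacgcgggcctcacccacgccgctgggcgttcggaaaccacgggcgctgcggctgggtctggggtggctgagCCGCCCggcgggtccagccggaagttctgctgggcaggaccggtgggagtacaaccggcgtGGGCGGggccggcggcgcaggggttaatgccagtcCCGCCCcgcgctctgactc
Spint2, chr7:29281978-29282227, minus strand: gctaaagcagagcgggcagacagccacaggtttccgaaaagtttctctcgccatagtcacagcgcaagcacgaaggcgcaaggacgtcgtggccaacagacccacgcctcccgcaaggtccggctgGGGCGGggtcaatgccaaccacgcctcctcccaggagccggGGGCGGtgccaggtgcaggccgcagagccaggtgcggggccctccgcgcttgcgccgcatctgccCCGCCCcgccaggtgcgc

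The promoters of Spint1 and Spint2 each held 3 GC boxes and had GC contents of 72.8% and 69.6%, against a median of 52.4% over 32851 RefSeq promoter windows of the same length. Those of Tmprss11a and Tmprss11d held 0 GC boxes, at 43.6% and 41.2% GC. Each of these held 1 CCAAT box, and that of Tmprss11d also held 1 AP-1 match, 39 to 33 bases before the start. The Asprv1 promoter held 1 GC box and 1 CCAAT box at 56.4% GC. That of Tmprss2, at 61.6% GC, held 0 matches to any of the 5 motifs. Of all windows, 32.7% held a GC box, 33.8% a CCAAT box, 6.75% an AP-1 match, 12.4% a TATA box and 6.02% an E-box. A match is a description of the letters, and binding was not measured.

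The genes whose pattern over the 5 arrays was most like that of Asprv1 were Krt6b, a keratin of activated and stratified epithelia, Calm4, of the calmodulin family, and Klk10, a kallikrein gene. Their log2 values, each centred on its own mean, differed from those of Asprv1 by a root mean square of 0.21, 0.26 and 0.35. Krt6b measured 2528, 1718 and 1925 on the duct arrays, against 103.1 and 37.6 on the basal arrays. Duct replicate 1 was the highest in it, as in Asprv1, and in both genes basal replicate 2 was below its brightest Bacillus control. Krt6b, Calm4 and Klk10 passed the filter for dim probe sets only through their duct arrays. For Tmprss11a the nearest genes were Dsc3, a desmosomal cadherin, Lpcat4, a lysophospholipid acyltransferase, and Adtrp, at 0.13, 0.19 and 0.20. Lpcat4 and Adtrp were below the brightest control on both basal arrays, so their likeness to Tmprss11a rests on background values there. Dsc3 measured 8740, 5058 and 7303 on the duct arrays, against 1020 and 1064 on the basal arrays.

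Of the other membrane-anchored serine proteases, 14 of 20 listed genes had a probe set of their own and 9 were tested. Tmprss11e alone was called (1 higher, 0 lower), against 0.838% and 0.136% of all tested genes, and the list's median was 0.10. Prss27, the gene of a GPI-anchored serine protease, measured 337.0, 206.4 and 290.5 on the duct arrays, against 75.6 and 165.3 on the basal arrays (1.16, adjusted p = 0.208). Of 9 tested secreted kallikreins, 2 were called higher and 0 lower, against 0.838% and 0.136% of all tested genes, although the median was -0.08. Klk10 measured 2045, 964.6 and 1218 on the duct arrays, against 85.7 and 50.7 on the basal arrays (4.04, adjusted p = 0.0206). It passed the filter for dim probe sets only through its duct arrays, and basal replicate 2 was below its brightest control. Klk11 measured 1328, 780.1 and 1023, against 211.1 and 145.0 on the basal arrays (2.44, adjusted p = 0.0427). Without single arrays Klk10 was called only without duct replicate 1 (adjusted p = 0.0324, otherwise 0.0608 to 0.139), and Klk11 in no case (0.0912 to 0.212). With no filter neither was called (0.0525 and 0.102), nor was Klk11 with a pseudocount of 1 (0.0552). Klk13 measured 9895, 4863 and 5253 on the duct arrays, against 879.6 and 1342 on the basal arrays. It did not pass (2.52, adjusted p = 0.0641) and was called under 5 of 16 alternatives.

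Of 8 other tested inhibitors of trypsin-like proteases, 0 were called in either direction, and before adjustment 2 were higher and 1 lower at p under 0.05. Over all tested genes the shares before adjustment were 7.91% higher and 10.6% lower. Slpi, the secretory leukocyte protease inhibitor, measured 1209, 344.2 and 448.8 on the duct arrays, against 33.5 and 33.3 on the basal arrays, and was at least 7.96-fold higher (3.58, adjusted p = 0.0560). Slpi passed the filter for dim probe sets only through its duct arrays. It was called under 8 of 16 alternatives, among them quantile normalization (0.0452) and the fit without duct replicate 1 (0.0337). Spink5, which inhibits kallikreins in skin, measured 1117, 602.3 and 925.6, against 89.0 and 175.8 on the basal arrays (2.62, adjusted p = 0.0562), and was called under 6 of 16. Over the alternatives the adjusted p ran from 0.000777 to 0.295 for Slpi and 0.00276 to 0.320 for Spink5. Wfdc2 and Aplp2 were at -0.14 and -0.56 and were not called.

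Of 13 tested substrates and receptors of these proteases, 0 were called. Before adjustment 3 were higher and 0 lower at p under 0.05, against 7.91% and 10.6% of all tested genes, and the median was -0.01. Plau, the urokinase gene, had the largest fold change, at 2.14 (adjusted p = 0.0786). The sodium channel genes Scnn1a and Scnn1b were at -0.47 and -0.22 (adjusted p = 0.498 and 0.790). Scnn1g was too dim to be tested, at 64.8, 127.9 and 68.1 on the duct arrays and 8.49 and 14.0 on the basal arrays, and was at least 1.15-fold higher. F2rl1, the gene of a protease-activated receptor, was not analysed here. Epcam and Met, a matriptase substrate and the receptor of hepatocyte growth factor, were at 0.08 and -0.20, and the sign of Epcam turned to -0.10 with quantile normalization and that of Met to 0.0097 with median centring.

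Flg, the gene of profilaggrin, the skin substrate of the Asprv1 protease, was at 13.3, 1.22 and 33.0 on the duct arrays and 2.04 and 20.0 on the basal arrays, below the brightest Bacillus control on all 5. Of 8 tested genes of filaggrin processing, 0 were called and 0 had an unadjusted p under 0.05, with a median of -0.14. Blmh and Capn1, proteases of that list, were at 0.14 and 0.47, and Klk7 at -0.69. Of 7 other tested aspartic proteases 0 were called. Before adjustment 0 were higher and 1 lower at p under 0.05, against 7.91% and 10.6% of all tested genes, and the median was -0.54. Ctsd, the gene of the lysosomal protease cathepsin D, was at 0.47, Bace2 at -0.66 and Bace1 at -0.77 (adjusted p = 0.365, 0.282 and 0.231).

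Markers of stratified squamous epithelium and thyroid were mostly higher in duct cells, as were Asprv1 and Tmprss11a. No tested marker of the club, ciliated, gland, myoepithelial, leukocyte, fibroblast, endothelial, chondrocyte or skeletal muscle lists was called. Of 12 markers of stratified squamous epithelium, 11 were called higher and 0 lower, against 0.838% and 0.136% of all tested genes. All 12 had duct arrays above both basal arrays, as did 16.5% of all tested genes. Their summed intensity was 93996 to 128570 on the duct arrays, against 9337 to 11664 on the basal arrays. Krtdap, Lgals7, Sprr1b, Sprr3 and Crct1 were at or below the brightest control on both basal arrays, and entered the test only through their duct arrays. Of 5 measured thyroid markers, 4 had duct arrays above both basal arrays and 1 of the 4 tested was called, and their sum was 9406 to 21578 in duct cells, against 270.8 to 312.9 in basal cells. Tg, at 8779, 16062 and 20119 on the duct arrays, made up most of the duct sums. It was at or below the control on both basal arrays, and entered the test only through its duct arrays. Duct replicate 1 had the highest Asprv1, Tmprss11a and Tmprss11d of the duct arrays and, at 9406, the lowest thyroid sum, while its squamous sum of 116596 was between those of the other duct arrays. The part of these markers in the results was not tested.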

How the data were processed

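The deposited table gives linear intensities. In it every array has a trimmed mean of 500.003, with 2% of probe sets trimmed at each end, while median intensities run from 92.3 to 152.8. The authors therefore scaled the arrays and did not quantile normalize them. How probe sets were summarised, and with which software, is not given in the sources used here. Probe sets were named from the platform annotation, and the 64 control probe sets were left out. The most intense probe set by mean log2 value stood for a gene, and the dimmest 40% of probe sets were not tested. Duct and basal arrays were compared on log2(intensity + 16) with limma 3.58.1 in R 4.3.3 (lmFit, eBayes, 2-sided, Benjamini-Hochberg, threshold 0.05), without covariates, by gene (12536) and by probe set (27022). Where all arrays of the lower group were at or below the brightest of 27 Bacillus control probe sets, a fold is given as a lower bound. It is the geometric mean of the higher group over that of the lower group's brightest controls. The code was tested on simulated data. Figures were drawn with matplotlib 3.10.9.

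The members, lists and tests were chosen with earlier results of these data known, and the motifs after the fold changes were seen. Named genes are the members, the called genes of each related list or otherwise its 2 most intense and its most changed gene, the sodium channel genes and F2rl1, and the 3 nearest patterns of each called member. Flg, Klk13, Prss27, Spink5, the marker genes and the neighbours of the Tmprss11 genes were named after their values were seen. When an array was left out, probe sets and filter stayed those of all 5 arrays, and a lone basal array was taken to vary as the duct arrays do. Samples of equal number were separate pools of mice and are not paired. Any pair of arrays had at most 1 probe set with the same value on both.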

Additional observations from a re-analysis of the deposited data

How the results depend on the processing

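Asprv1, Tmprss11a and Tmprss11d had positive fold changes under every alternative in which they were tested, at 3.84 to 5.23, 2.74 to 3.07 and 2.27 to 3.36; Tmprss11d was not tested under the 60% filter. The number of members called higher by gene was 2, 3 with median centring or an intensity trend, 1 with no filter and 0 to 1 without single arrays. By probe set it was 1, 2 with quantile normalization, a pseudocount of 64, the 60% filter or array weights, 3 with median centring or an intensity trend, 0 with a pseudocount of 1 or no filter, and 0 without any single array; 1 member was called lower with the trend. The replicate number as a block (replicate block) leaves unpaired duct replicate 3 without weight. It gave 0 member calls by gene and by probe set, and 0 genes higher and 0 lower over all genes. Deviations from the group means correlated across genes at r = -0.08 and -0.04 for equal numbers. For duct replicate 3 with basal replicate 1, r was 0.06. The deviations of 2 basal arrays are exact opposites, so these values cannot show whether equal numbers deviated together. Over all genes, 105 were higher and 17 lower; the counts were 281 and 57 with median centring, 208 and 95 with a pseudocount of 64, 35 and 1 with no filter, 250 and 158 with the 60% filter, 565 and 377 with a trend, and 0 to 46 and 0 to 2 without single arrays. The lower count was 28 with quantile normalization, 40 with array weights and 49 with the mean of probe sets. The median of all genes moved from -0.12 to -0.05 with quantile normalization and 0.08 with median centring. Small values turned sign: Spint2 was at 0.017, Met at 0.0097 and Wfdc2 at 0.061 with median centring, and Epcam at -0.10 with quantile normalization, -0.020 with the replicate block and -0.038 with the mean of probe sets. Blmh was at -0.12 without _x_ and _s_ probe sets. Without single arrays the ranges were -0.80 to 0.042 for Prss22, -0.68 to 0.23 for Tmprss2, -0.028 to 1.73 for Tmprss4, -0.020 to 0.17 for Epcam, -0.060 to 0.34 for Blmh, -0.58 to 0.14 for Scnn1b and -0.32 to 0.51 for Tmprss11g. The cause of these changes was not tested.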
